A study of Homo sapiens with 6 samples.

Results

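The replication-dependent histone genes encode the H1, H2A, H2B, H3 and H4 proteins that package newly made DNA. Their RNA was sequenced here in RPMI-8402 cells with stable Cas9, an established line of T-cell acute lymphoblastic leukaemia. One group received the solvent DMSO as control and the other received doxycycline (DOX), which induced guide RNAs against MYC and MYCN; cells of both groups were collected at 72 hours, with 3 libraries each. The series text names guides against both genes, the treatment text names MYC alone, and the DOX samples carry the genotype label MYCN_knockout. Members were the rows of the count table whose symbol begins with HIST1H to HIST4H followed by a histone class, leaving out the symbols that end in PS and a number. This rule uses no measured value and gave 92 of 63677 gene rows: 6 of H1, 21 of H2A, 29 of H2B, 19 of H3 and 17 of H4. By cluster, 57 rows carried a HIST1 symbol, 30 a HIST2, 4 a HIST3 and 1 a HIST4 symbol. No library of cells given DOX without guides was analysed here, so the drug and the guides were measured together. The sources do not say whether each library is a culture of its own, so the spread behind the p-values may be technical only.

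Messenger RNAs of this family are the exception to polyadenylation. Their 3′ ends are formed by a cut behind a stem-loop, which the stem-loop binding protein SLBP holds and which the U7 particle guides, and the RNAs are made and destroyed with S phase. Some members can also end at a poly(A) site further downstream and then carry a tail like other messages. The labels name total RNA and strand-specific libraries but not whether poly(A) RNA was selected. RNA of a cell population was measured, so fewer cells in S phase and less histone RNA per cell cannot be told apart.

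The stem-loop is shown first because it sets this family apart from other messages. Its motif, GGNNNTTTNNANNNCC with the bases at N in the stems paired to each other, was searched on the transcript strand of GENCODE 29 and found in 31 members by gene name. In the lines below, capitals mark the paired stem and lower case the loop, 5′ to 3′.
H4 form 1 (5 genes, HIST1H4H among them): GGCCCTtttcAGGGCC
H4 form 2 (3 genes, HIST1H4I among them): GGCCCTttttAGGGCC
Form 3, of H2A, H2B and H3 (18 genes, HIST3H2A and HIST1H3H among them): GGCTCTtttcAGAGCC
Form 4, of H2B and H3 (5 genes, HIST1H2BD among them): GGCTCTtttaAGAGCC
All 8 H4 genes with a match held a stem that differed from that of the 23 H2A, H2B and H3 genes with a match. Of 19884 protein-coding genes whose IDs were not those of member rows, 44 (0.22%) held the motif in a transcript. Members matched by symbol alone, HIST1H4I and HIST1H3H among them, stayed in that set, so some of the 44 are members. In 21 of the 31 members an annotated transcript ran at least 100 bases past the stem-loop, and in 10 no transcript with a match did. Members without a match include short models, such as HIST1H4D at 312 bases and HIST1H2BK at 381. A missing match therefore depends on the annotation and does not show that a gene lacks the stem-loop.

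Most rows held few reads. Together the 92 rows held 16257 of the counts, 0.00938% of all, in libraries of 28602145 to 29204148 counts. In 24 rows no library held a count, which allows up to 0.101 to 0.107 CPM (counts scaled to a common library total) per library, taking 3 counts as the floor. These 24 include HIST1H1T, HIST1H2AA and HIST1H2BA, histones of the testis. A mean of at least 1 CPM over all libraries was reached by 15 rows, and these held 90.1% of the members' counts. HIST1H2BK alone held 4632 counts, HIST3H2A 1959, HIST1H2AC 1716 and HIST2H2BE 1195. Per kilobase of GENCODE 29 exon, the mean over all libraries was 12.5 CPM per kb for HIST3H2A, 5.92 for HIST1H2AC, 3.14 for HIST2H2BE and 0.592 for HIST1H4H. HIST1H2BK stood at 70.1 CPM per kb, but over a model of 381 bases with no stem-loop match, so this value depends on the annotation.

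Near-identical copies limited what could be counted. In 18 rows more than 50% of the 100-base windows, the length of a read, also occurred in a transcript of another gene, and those rows held 280 counts in all. The 47 rows with no shared window held 8513 counts. The 92 rows carried 76 symbols, since 15 symbols stood on more than 1 row, 31 rows in all, of which 17 held no count. HIST1H4A stood on 3 rows, and GENCODE 29 gives the IDs of 2 of them as HIST2H4A and HIST2H4B. HIST3H2BA and several HIST2 rows are pseudogenes in GENCODE 29 that the rule keeps.

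Libraries are named by group and the number in their column. Across 9311 genes DMSO 11 lay closer to the DOX libraries (root mean square log2 distance 0.18 to 0.21) than to DMSO 23 and 35 (0.41 to 0.43). MYCN was lower by DESeq2 (log2 fold change -0.86, adjusted p = 1.08e-05), at 76.8 to 110 CPM in DMSO and 46.2 to 53.7 CPM in DOX, and edgeR gave an adjusted p of 0.0726. MYC held 245 ± 39.7 CPM (mean ± SD, n = 3, as in all such values) with DMSO against 200 ± 6.57 with DOX, and edgeR gave adjusted p = 0.176. T cell markers summed to 1720 to 1930 CPM per library, while B cell and myeloid markers summed to 5.39 to 7.93 and 0.710 to 1.53 CPM, with MS4A1 and ELANE at 0.

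The comparison asked whether histone RNA differed once the guides were induced. HIST1H4H, HIST1H3H and HIST3H2A were the 3 members that DESeq2 called, the first pair higher and the last lower in DOX, and edgeR's quasi-likelihood test called 0. The low-count filter of edgeR (at least 0.346 CPM in 3 libraries) kept 26 members: 1 of H1, 7 of H2A, 11 of H2B, 2 of H3 and 5 of H4. Of those 26, 19 passed the minimum in all 6 libraries and 7 did not pass it in every DMSO library; 3 of these, HIST1H2BG, HIST1H4E and HIST1H4K, passed it in no DMSO library, so their selection favoured a higher value in DOX. Beside the 0 members, edgeR called 0.0313% of 15949 genes, 5 in all (0.0125% higher and 0.0188% lower). At an unadjusted edgeR p under 0.05 stood 10 members, 9 higher and 1 lower, against 26.0% of all genes, 11.2% higher and 14.8% lower. Of the 9 higher, 4 came from the 7 members not over the minimum in all libraries, so the filter bore on that split; among the other 19 members, 5 were higher and 1 lower. The test of limma voom called 0 members and the same shares of all genes as edgeR. Without DMSO 11 edgeR called 15 of 30 tested members, 11 higher and 4 lower (HIST3H2A, HIST1H2BJ, HIST1H2BN and HIST4H4), beside 49.4% of all genes, 23.7% higher and 25.7% lower. DESeq2 called 3 of the 15 members to which it gave an adjusted p, against 9.81% of all genes, 3.37% higher and 6.44% lower. With the filter blind to group (a mean of at least 0.5 CPM over all libraries), 18 members were tested, their median log2 fold change was 0.18 and 11 were above 0, against a median of -0.002 and 49.7% above 0 over all 14887 genes.

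**Figure D1:**
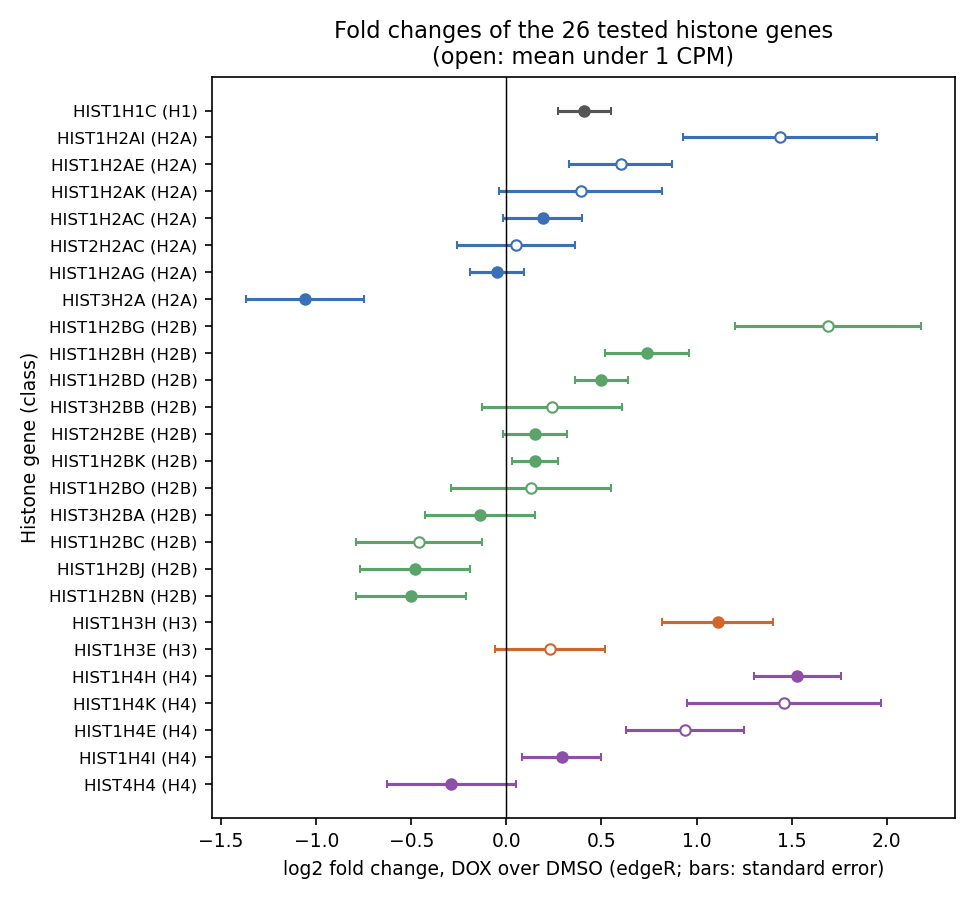
Log2 fold change of DOX over DMSO (x axis, edgeR, bars are standard errors) for the 26 tested histone genes (y axis), coloured by class, with open circles for genes under a mean of 1 CPM. HIST1H2BG, under 1 CPM, stands highest at 1.69, HIST1H4H stands at 1.53 and HIST3H2A at -1.06, and no gene passed edgeR's threshold.

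Among the core histones of H4, which form a tetramer with H3 at the centre of the nucleosome, HIST1H4H (ENSG00000158406, chromosome 6) had the largest fold change. It stood at 0.750, 0.508 and 0.710 CPM in DMSO 11, 23 and 35 (21, 15 and 21 counts) and at 2.08, 1.75 and 1.88 CPM in DOX 12, 24 and 36 (60, 50 and 54 counts). Every DOX library lay above every DMSO library, DMSO 11 included. The log2 fold change was 1.53 ± 0.23 (SE) with adjusted p = 0.0666 by edgeR, and DESeq2 gave adjusted p = 0.000889. With DOX 12 left out DESeq2 no longer called it (log2 fold change 1.47, adjusted p = 0.0685), and with any other library left out it did, with adjusted p of 5.49e-05 to 0.0418.

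None of the other H4 genes was called by edgeR or DESeq2. To 2 of the 5 tested H4 genes, HIST1H4E and HIST1H4K, DESeq2 gave no adjusted p and so could not call them. HIST1H4I held 1.43, 1.25 and 1.05 CPM in DMSO 11, 23 and 35 and 1.39, 1.65 and 1.53 CPM in DOX 12, 24 and 36, with overlapping groups (edgeR log2 fold change 0.29 ± 0.21, adjusted p = 0.384). HIST1H4E rested on few reads, at 8, 8 and 7 counts in DMSO and 16, 16 and 12 in DOX. Those groups did not overlap, and the edgeR log2 fold change was 0.94 ± 0.31 with adjusted p = 0.123. HIST4H4, the lone member of its cluster on chromosome 12, held 0.714 CPM in DMSO 11 against 1.86 and 1.72 in DMSO 23 and 35, and 1.11, 1.23 and 1.18 CPM in DOX. DMSO 11 lay below and the other DMSO libraries above all DOX libraries, and edgeR gave -0.29 ± 0.34 with adjusted p = 0.588. Without DMSO 11 the value was -0.61 (adjusted p = 0.0219) and without DMSO 23 it was -0.07 (0.939).

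In the H3 class, HIST1H3H (ENSG00000203813, chromosome 6) stood at 0.572, 0.542 and 0.913 CPM in DMSO 11, 23 and 35 and at 1.49, 1.75 and 1.15 CPM in DOX 12, 24 and 36. The groups did not overlap, with 16 to 27 counts per DMSO library and 33 to 50 per DOX library. The log2 fold change was 1.11 ± 0.29, adjusted p = 0.0957 by edgeR and adjusted p = 0.0436 by DESeq2. DESeq2's call held without DMSO 11 (adjusted p = 0.0273) and ended without DMSO 23 (0.280), DMSO 35 (0.101), DOX 12 (0.269) or DOX 36 (0.156); without DOX 24 it gave no adjusted p. HIST1H3E was at 0.484 ± 0.118 CPM with DMSO and 0.568 ± 0.0695 with DOX with overlapping groups. HIST1H3G and HIST1H3D did not pass the low-count filter and held 61 and 60 counts over all libraries.

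H2A and H2B form the dimers that flank the H3 and H4 tetramer. HIST3H2A (ENSG00000181218, chromosome 1) stood at 8.15 CPM in DMSO 11, 22 in DMSO 23 and 15.3 in DMSO 35, and at 6.17, 8.09 and 7.62 CPM in DOX 12, 24 and 36. DMSO 11 lay just above the highest DOX library, and the DMSO libraries spread far more than the DOX libraries. The log2 fold change was -1.06 ± 0.31, adjusted p = 0.107 by edgeR and 0.0138 by DESeq2. DESeq2 gave -0.69 without DMSO 23 (adjusted p = 0.216) and did not call it without DMSO 35 (0.122), DOX 12 (0.183), DOX 24 (0.0783) or DOX 36 (0.117); without DMSO 11 it gave -1.35 (3.30e-15).

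None of the other H2A genes was called by edgeR or DESeq2. To 4 of the 7 tested H2A genes, HIST1H2AE and HIST1H2AI among them, DESeq2 gave no adjusted p and so could not call them. HIST1H2AC held 6.14 CPM in DMSO 11 and 10.1 and 11.4 CPM in DMSO 23 and 35, with 11.3, 10.2 and 10.1 CPM in DOX. Apart from DMSO 11 the libraries lay together, and the edgeR log2 fold change went from 0.19 to -0.03 without DMSO 11. HIST1H2AG lay at 3.79 to 4.23 CPM with DMSO and 3.58 to 4.03 CPM with DOX. HIST1H2AE held 11 to 14 counts in the DMSO libraries and 17 to 21 in the DOX libraries, which do not overlap (edgeR log2 fold change 0.60 ± 0.27, adjusted p = 0.198). HIST1H2AI, named here after its values were seen, held 12, 7 and 2 counts in DMSO and 13, 22 and 22 in DOX (1.44 ± 0.51, adjusted p = 0.136), and 1 DMSO library passed the filter's minimum.

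None of the H2B genes was called by edgeR, voom or DESeq2. DESeq2 gave no adjusted p to 4 of the 11 tested H2B genes and so could not call them. HIST1H2BG is among those 4 and is named here after its values were seen. It held 9, 3 and 3 counts in DMSO and 19, 19 and 11 in DOX (edgeR 1.69 ± 0.49, adjusted p = 0.103). It passed the filter's minimum in no DMSO library. HIST1H2BD held 4.57, 4.20 and 4.02 CPM in DMSO 11, 23 and 35 and 5.75, 6.76 and 5.53 CPM in DOX 12, 24 and 36. All DOX libraries lay above all DMSO libraries, with an edgeR log2 fold change of 0.50 ± 0.14 and adjusted p = 0.104. HIST1H2BH held 1.89, 1.15 and 1.66 CPM in DMSO and 2.39, 2.87 and 2.57 CPM in DOX, again with no overlap (0.74 ± 0.22, adjusted p = 0.108). HIST1H2BJ held 2.54 CPM in DMSO 11 and 5.69 and 5.41 CPM in DMSO 23 and 35, with 2.84, 3.57 and 3.37 CPM in DOX. DMSO 11 thus lay below all DOX libraries while the other DMSO libraries lay above them (-0.48 ± 0.29, adjusted p = 0.310; without DMSO 11 -0.77, adjusted p = 0.000215). HIST1H2BN, which had the lowest fold change after HIST3H2A among members of at least 1 CPM, held 1.54, 3.08 and 1.86 CPM in DMSO 11, 23 and 35 and 1.80, 1.51 and 1.29 CPM in DOX (-0.50 ± 0.29, adjusted p = 0.297). DMSO 23 stood highest, and edgeR gave -0.15 without it (adjusted p = 0.767) and -0.69 without DMSO 11 (0.0173). In GENCODE 29 it overlaps HIST1H2AL on its own strand and HIST1H2AK on the other, so its reads may be shared with them. HIST1H2BK stood at 25.3 ± 3.07 CPM with DMSO and 28.1 ± 2.69 with DOX, and HIST2H2BE at 6.53 ± 1.40 and 7.24 ± 0.488 CPM, each with overlapping groups and adjusted p of 0.437 and 0.592.

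Linker histones of H1 bind where DNA enters and leaves the nucleosome. HIST1H1C held 5.36, 5.35 and 4.56 CPM in DMSO 11, 23 and 35 and 6.79, 7.25 and 6.19 CPM in DOX 12, 24 and 36. The groups did not overlap, and edgeR gave 0.41 ± 0.14 with adjusted p = 0.129. HIST1H1E, HIST1H1B and HIST1H1D held 37, 23 and 19 counts over all libraries and were not tested. Of the 15 members averaging 1 CPM or more, 5 lay wholly higher in DOX (HIST1H4H, HIST1H3H, HIST1H2BH, HIST1H2BD and HIST1H1C) and 1 wholly lower (HIST3H2A). Over all 13389 genes at that level, 14.4% lay wholly higher and 17.2% wholly lower, 31.6% together.

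**Figure D2:**
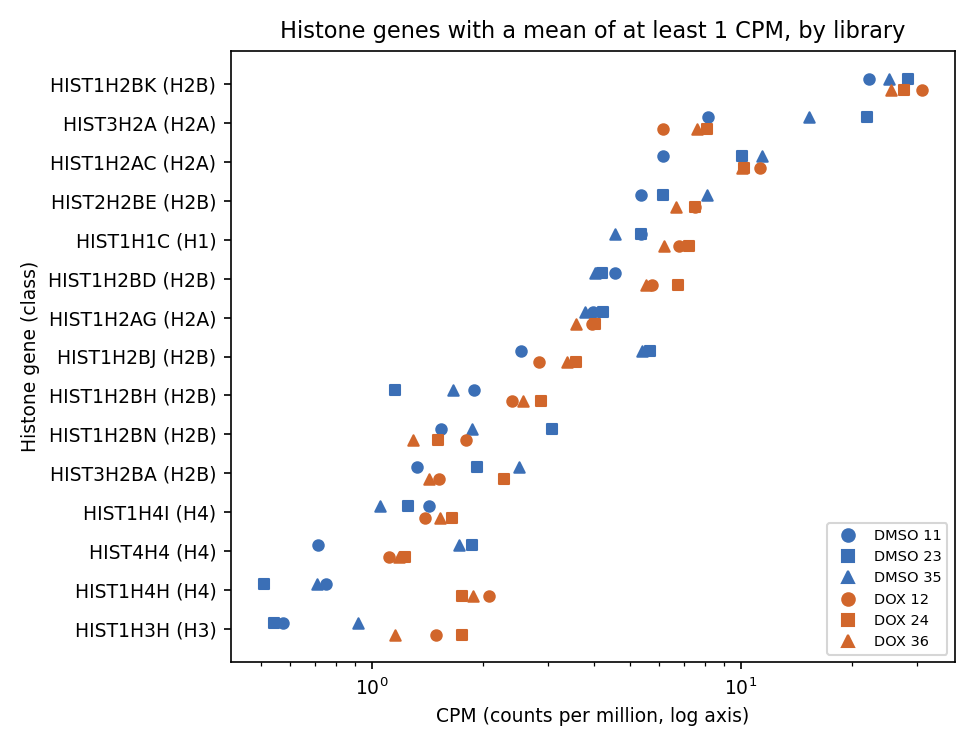
CPM on a log axis (x) of the 15 histone genes averaging 1 CPM or more (y), with DMSO libraries in blue and DOX libraries in orange. DMSO 11 (blue circle) lies among or below the DOX libraries for HIST1H2BJ, at 2.54 CPM, and HIST4H4, at 0.714 CPM.

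Sums over every row of a class do not depend on a filter, and they are given as a description with no test. The H3 rows summed to 2.5, 1.96 and 2.27 CPM in DMSO 11, 23 and 35 and to 3.92, 3.89 and 3.37 CPM in DOX 12, 24 and 36, a ratio of means of 1.66. The H4 rows summed to 4.32 ± 0.410 CPM in DMSO and 6.09 ± 0.214 CPM in DOX, a ratio of 1.41, and the H1 rows to 5.56 ± 0.555 and 7.18 ± 0.448 CPM, a ratio of 1.29. In these 3 classes every DOX library lay above every DMSO library. The H4 sums include HIST1H4H, which alone held 0.656 ± 0.130 CPM in DMSO and 1.90 ± 0.165 CPM in DOX. They therefore do not show that the other H4 rows differ, and sums without HIST1H4H were not tested. HIST1H1C held 1024 of the 1103 H1 counts, and without it the other H1 rows stood at 0.470 ± 0.151 CPM with DMSO and 0.441 ± 0.143 with DOX.

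The groups overlapped in the H2A and H2B sums. H2A rows summed to 20.8, 38.0 and 32.2 CPM in DMSO 11, 23 and 35 and to 24.3, 25.1 and 24.6 CPM in DOX. Leaving out HIST3H2A turned the direction of the class: the other H2A rows summed to 12.7, 16.0 and 16.9 CPM in DMSO and 18.1, 17.0 and 17.0 CPM in DOX, without overlap. H2B rows summed to 41.7, 53.4 and 52.1 CPM in DMSO and 57.0, 56.1 and 49.6 CPM in DOX.

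**Figure D3:**
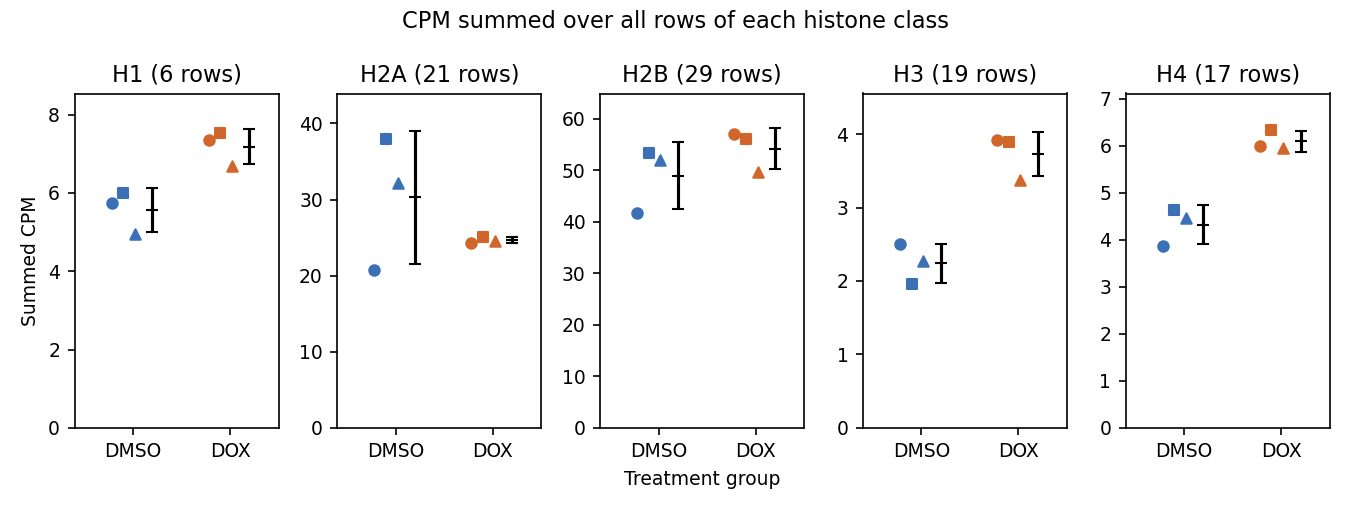
Summed CPM (y axis, from 0) of all rows of each histone class in DMSO (blue) and DOX (orange) libraries, with circle, square and triangle for DMSO 11, 23 and 35 and for DOX 12, 24 and 36; black bars are mean ± SD. H1, H3 and H4 sums lie higher in each DOX library, and the H2A sum of DMSO 11, 20.8 CPM, lies below those of the DOX libraries.

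By cluster, the HIST1 rows summed to 57.8, 69.9 and 65.9 CPM in DMSO 11, 23 and 35 and to 79.7, 77.9 and 71.1 CPM in DOX 12, 24 and 36, with no overlap. The 4 HIST3 rows summed to 17.5 ± 7.27 CPM with DMSO and 9.61 ± 1.18 CPM with DOX, with DMSO 11 at 9.86 CPM between the DOX libraries. HIST2 rows were at 8.03 ± 1.88 and 8.87 ± 0.458 CPM. The H4 genes of HIST1 alone, HIST1H4H included, summed to 3.14, 2.51 and 2.40 CPM in DMSO and 4.85, 5.01 and 4.66 CPM in DOX, a ratio of 1.80.

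The 77 rows with a mean under 1 CPM were summed next. Their sum was 8.04, 7.49 and 7.67 CPM in DMSO 11, 23 and 35 and 11.4, 10.8 and 10.5 CPM in DOX 12, 24 and 36, a ratio of 1.41. DMSO 11 lay with the other DMSO libraries in this sum. The 15 rows at or above 1 CPM summed to 83.8 ± 15.5 CPM in DMSO and 85.0 ± 4.58 CPM in DOX, with overlapping groups. Rows were also split by their annotated transcripts that hold the stem-loop, leaving aside transcripts without a match. Where all of these end under 100 bases past it, the rows summed to 7.06 ± 0.0485 CPM in DMSO and 9.52 ± 1.31 CPM in DOX. HIST1H2BD held 889 of the 1435 counts of this set. Of its 2 annotated transcripts, of 496 and 789 bases, only 1 holds the stem-loop, so the set does not fix where its RNA ends. Rows with a stem-loop transcript that runs at least 100 bases past it summed to 41.0 ± 10.8 and 38.7 ± 1.53 CPM.

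RNAs that carry no poly(A) tail were summed in the same way. The 13 RNAs of that list, among them the transcription regulator RN7SK and the signal recognition particle RNA RN7SL1, summed to 15.8, 18.1 and 16.3 CPM in DMSO 11, 23 and 35 and to 22.1, 20.0 and 19.8 CPM in DOX 12, 24 and 36. The groups of this sum did not overlap. Of the 7 tested, edgeR and DESeq2 each called 0, with a median log2 fold change of 0.33, from which RMRP, at -0.09, differed in sign. RN7SK, at 6.30 ± 1.42 CPM with DMSO and 8.29 ± 0.609 with DOX, overlapped between groups. The part of the difference in this sum in the histone sums was not tested.

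**Figure D4:**
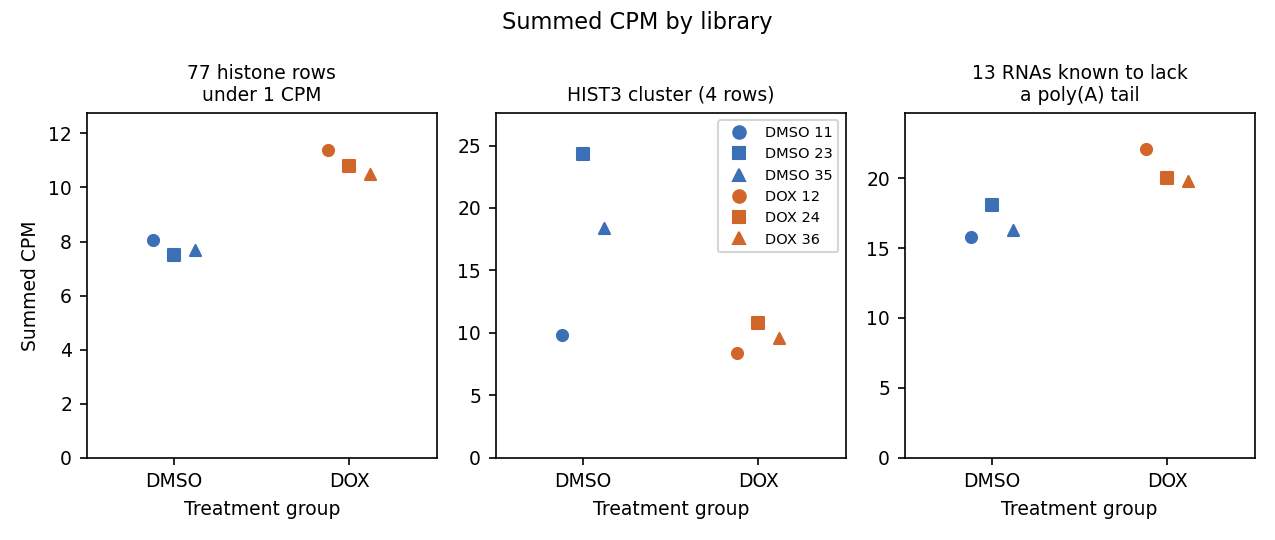
Summed CPM (y axis, from 0) by library for the 77 histone rows under 1 CPM, the 4 HIST3 rows and 13 RNAs known to lack a poly(A) tail, in DMSO (blue) and DOX (orange). The sums at left and right are higher in each DOX library, at 10.5 to 11.4 and 19.8 to 22.1 CPM, while the HIST3 sum of DMSO 11 lies among the DOX libraries.

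The promoters of the 3 genes that DESeq2 called are printed because their exact motif matches differ. They come from RefSeq (GRCh38.p14) and run 5′ to 3′ from 250 bases before to 50 bases after the start. Capitals mark a CCAAT box (CCAAT) or a TATA box (TATAAA), with ATTGG where the CCAAT box lies on the other strand. The HIST1H4H window held no exact match to the motifs searched. Near matches, such as tataag in that window, were not marked, so a missing match does not show that the element is absent.
HIST1H4H (chr6:26285485-26285784, strand -): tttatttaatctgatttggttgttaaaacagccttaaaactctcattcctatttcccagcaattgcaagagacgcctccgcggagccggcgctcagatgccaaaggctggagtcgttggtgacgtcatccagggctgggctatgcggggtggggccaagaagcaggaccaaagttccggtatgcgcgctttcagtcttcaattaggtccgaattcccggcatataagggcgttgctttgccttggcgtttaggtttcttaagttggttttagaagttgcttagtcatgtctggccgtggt
HIST1H3H (chr6:27809801-27810100, strand +): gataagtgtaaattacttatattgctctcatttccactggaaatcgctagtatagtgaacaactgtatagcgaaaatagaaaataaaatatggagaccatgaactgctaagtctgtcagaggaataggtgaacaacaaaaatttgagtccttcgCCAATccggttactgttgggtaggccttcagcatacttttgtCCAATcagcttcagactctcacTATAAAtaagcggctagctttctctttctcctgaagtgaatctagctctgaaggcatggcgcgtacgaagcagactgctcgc
HIST3H2A (chr1:228457824-228458123, strand -): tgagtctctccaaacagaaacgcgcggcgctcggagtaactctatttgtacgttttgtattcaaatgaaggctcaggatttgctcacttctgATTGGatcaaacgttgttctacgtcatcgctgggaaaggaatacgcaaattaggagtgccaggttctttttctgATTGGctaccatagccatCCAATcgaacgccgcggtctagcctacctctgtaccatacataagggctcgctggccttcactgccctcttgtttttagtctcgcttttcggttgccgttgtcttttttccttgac
Motifs were searched on both strands in 60 member promoters and in all 27305 promoters of the table. CCAAT was in all H1, H2A, H2B and H3 windows (6, 16, 13 and 12) and in 3 of 13 H4 windows, against 35.7% of all promoters. The octamer ATTTGCAT, bound by POU2F1, was in 9 of 13 H2B and 11 of 16 H2A windows and in 0 of 13 H4 windows, against 1.80% of all. TATAAA was in 40 of the 60, against 12.0%. The letters CACGTG, the E-box that MYC and MAX bind, were in 0 of the 60 windows and in 7.43% of all promoters. The E2F forms TTTGGCGC and TTTCCCGC were in 0 and 1 of the 60, against 0.659% and 1.66%. CCAAT and the octamer can lie side by side, and neighbouring histone genes transcribed apart can share a window. A match describes letters only.

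Genes that make, cut and destroy histone RNA were taken from lists, and values given for them with ± are edgeR log2 fold changes with their SE unless CPM is named. Over the 107 tested genes of the regulator, variant, chaperone and S phase lists, edgeR called 0, voom 0 and DESeq2 7, all lower. DESeq2 called 6.44% of all genes lower and 3.37% higher. At an unadjusted edgeR p under 0.05 stood 15 of the 107, all lower in DOX. Of all genes, 14.8% stood there as lower and 11.2% as higher. Without DMSO 11 that direction did not hold: edgeR called 59 of the 107, 40 higher and 19 lower. Of all genes it then called 49.4%, 23.7% higher and 25.7% lower. Of the 8 tested transcription regulators DESeq2 called 0, with a median edgeR log2 fold change of -0.0027. NPAT, the coactivator of histone loci, was at 49.7, 40.8 and 53.4 CPM in DMSO 11, 23 and 35 and at 54.4, 54.9 and 56.9 CPM in DOX, where every library lay just above those of DMSO (0.21 ± 0.11, adjusted p = 0.255). The cyclin CCNA2 was at 220 ± 5.41 and 219 ± 6.55 CPM in DMSO and DOX, and the transcription factor YY1 at 219 ± 22.2 and 190 ± 2.86 CPM.

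Of 17 processing genes DESeq2 called 2, both lower, where 6.44% of all genes were called lower. LSM11, a ring protein of the U7 particle, held 11.6, 14.4 and 14.9 CPM in DMSO 11, 23 and 35 and 9.81, 8.44 and 9.95 CPM in DOX (edgeR -0.54 ± 0.14, edgeR adjusted p = 0.0946, DESeq2 adjusted p = 0.0172). CPSF2, a subunit of the cleavage complex, held 118, 166 and 172 CPM in DMSO and 109, 112 and 105 CPM in DOX (edgeR -0.48 ± 0.14, edgeR adjusted p = 0.104, DESeq2 adjusted p = 0.0304). Both genes lay wholly lower in DOX, with DMSO 11 the nearest DMSO library. SLBP was at 178 ± 30.0 and 190 ± 13.6 CPM and overlapped, and CASP8AP2 (FLASH), which bridges LSM11 to the cleavage complex, gave -0.09 ± 0.12 with adjusted p = 0.650. The RNA effector SRRT and the Sm protein SNRPB, with the most counts of this list, gave 0.38 ± 0.25 and -0.17 ± 0.09. Without DMSO 11 edgeR gave SRRT 0.79 (adjusted p = 3.48e-08) and SLBP 0.24 (adjusted p = 0.00741).

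Of 7 decay genes DESeq2 called 0. ERI1, the nuclease that trims the stem-loop end, gave -0.08 ± 0.10, the helicase UPF1 0.03 ± 0.08 and the uridyl transferase ZCCHC11 -0.06 ± 0.09.

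Of 11 tested replication-independent variants DESeq2 called H1F0 and H3F3B lower, where 6.44% of all genes were called lower. The linker variant H1F0 averaged 394 ± 254 CPM with DMSO, where DMSO 11 held 122 CPM, the level of the highest DOX library, and at 113 ± 13.4 CPM in DOX. H3F3B, which encodes H3.3, stood at 1030 ± 218 and 690 ± 43.3 CPM (DESeq2 adjusted p = 0.0130), and H2AFZ, which encodes H2A.Z, at 973 ± 143 and 995 ± 136 CPM. None of 23 histone chaperones was called by DESeq2, and the most counted, NAP1L1 and NPM1, gave edgeR log2 fold changes of -0.09 ± 0.09 and -0.19 ± 0.11.

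Of 41 S phase genes DESeq2 called 3, all lower, where 6.44% of all genes were called lower; without DMSO 11 edgeR called 18 of the list higher and 8 lower. The 3 were the primase subunit PRIM1, the licensing factor CDT1 and the helicase partner CDC45. PRIM1 held 60.1, 74.5 and 77.3 CPM in DMSO and 46.8, 46.7 and 46.5 CPM in DOX (edgeR -0.60 ± 0.11, DESeq2 adjusted p = 0.000509). The helicase subunit MCM7 and the polymerase POLE, with the most counts, gave -0.26 ± 0.09 and 0.29 ± 0.18, and without DMSO 11 POLE was at 0.55 (edgeR adjusted p = 5.46e-06). The list's median was 0.072, and its sum was highest in DMSO 11, at 8950 CPM, against 6460 and 7260 in DMSO 23 and 35 and 7740 to 7970 in DOX. Of 14 tested non-histone genes that lie between the HIST1 histones, DESeq2 called ZNF391 lower and none higher, and HMGN4 and ABT1, the most counted, gave 0.06 ± 0.08 and -0.04 ± 0.13; the median of these genes was 0.054.

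The authors' deposited table gave 15 of the 92 members an adjusted p and had the same 3 below 0.05: HIST1H4H at 1.53 (adjusted p = 0.000983), HIST3H2A at -1.06 (0.0107) and HIST1H3H at 1.11 (0.0452).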

How the data were processed

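The authors deposited counts of reads for each Ensembl gene. Their second table compares DOX with DMSO and, per the file headers, holds each gene's mean signal after normalisation, the log2 difference and its error, a Wald score and p-values. Per the submitters' processing notes, which give no order, STAR 2.5.2a, featureCounts and DESeq2 1.12.4 were used with hg19; the annotation release, the strand setting and the treatment of reads that map to several places are not given in the sources used here. Count columns show the group and a number that is in no label. The 92 spike-in rows held 0 counts and were left out. EdgeR 4.0.16 (R 4.3.3; robust quasi-likelihood test, filterByExpr, TMM scaling) tested 15949 genes, with Benjamini-Hochberg adjustment over all of them and a threshold of 0.05; the standard error is the log2 fold change divided by the square root of F. As alternatives, DESeq2 1.42.0 and voom (limma 3.58.1) were run, as were other scalings and filters and leaving out each library. CPM used the TMM-scaled totals. On simulated counts of 15711 genes, edgeR recovered 73% of 2-fold and 22% of 1.5-fold changes with 4 false among 99 calls, and DESeq2 76% and 38% with 23 false among 137. GENCODE 29 (GRCh38) was matched by gene ID for 43 rows and by symbol for 36, and 13 rows were unmatched; RefSeq was matched by symbol for 73. Builds differ, so annotation served for lengths, overlaps and sequence only. Genes were named by a rule: the 4 members with most CPM per class, members called by edgeR or DESeq2, members of at least 1 CPM whose groups do not overlap, and the 2 lowest fold changes; of each other list, DESeq2 or edgeR calls (up to 4), the 2 most counted, and NPAT, SLBP, LSM11, CASP8AP2 and ERI1. The members and lists were chosen with earlier results of these data known.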

Additional observations from a re-analysis of the deposited data

How the results depend on the processing

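The labels number replicates, but the numbers in the count columns are in no label. A replicate block by the first digit of those numbers, added after the data were seen, gave 3 calls over all genes and 0 among histone members and regulators. Deviations of libraries that share that digit correlated at 0.05 to 0.07, and no library correlated best with the one that shares its digit. With 3 libraries per group these values cannot tell whether such libraries share a culture or a day. Over all genes, edgeR's 5 calls became 1761 with no filter on low counts, DESeq2 called 1383, and leaving out single libraries gave 0 to 8109, the highest without DMSO 11 (49.4% of its genes). Among histone members the 0 calls of edgeR became 3 by DESeq2, 5 with no filter (HIST1H4H, HIST1H3H, HIST1H2AI, HIST1H2BF and HIST1H2BG, all higher) and 0 to 15 with single libraries left out, the 15 (11 higher, 4 lower) without DMSO 11. DESeq2's 3 members became 0 to 10 with single libraries left out, an alternative added after the data were seen: 10 without DMSO 11, 0 without DOX 12 and HIST1H4H alone without any other library. For regulators, variants, chaperones and S phase genes, edgeR's 0 became 7 by DESeq2, 6 with no filter and 0 to 59 without single libraries, the 59 (40 higher, 19 lower) without DMSO 11. Other scalings left the counts of members at 0. Leaving out the member with the most CPM moved the log2 ratio of the class sums from 0.37 to -0.09 for H1, from -0.30 to 0.19 for H2A and from 0.73 to 0.53 for H3. HIST1H2AC reversed to -0.03 without DMSO 11. The cause of these changes was not tested. Low counts are a limit, since 65 of the 92 rows held under 60 counts over all libraries and 24 of these held none.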
